A study of Homo sapiens with 12 samples.

Results

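The proteasome genes described here are the 48 rows of the deposited count table whose gene name is PSM, a letter from A to G and a number, out of 58684 rows. By name, they fall into 19 genes of the core particle (8 PSMA, 11 PSMB), 20 of the regulatory particle (6 PSMC, 14 PSMD) and 9 others (4 PSME, PSMF1, 4 PSMG). The choice used names alone and no measured value. The data are RNA sequencing libraries of U2OS, a human osteosarcoma line, from stable cells that carry either eIF4E-Flag (a tagged copy of the cap-binding translation factor eIF4E) or the vector alone. From each kind of cell, input RNA (total RNA) and RNA from an immunoprecipitation of capped RNA (Cap IP) were sequenced, with 3 libraries in each of 4 groups. By its title, the series asks how eIF4E affects the share of each transcript that carries the cap. The labels do not say whether the 3 libraries of a group came from separate cultures, or whether a line is 1 clone or a pool. A p-value here therefore speaks only of the spread among these samples, which may be technical.

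The proteasome degrades proteins that carry ubiquitin. Its core particle is a barrel of alpha rings (PSMA subunits), which gate the entrance, around beta rings (PSMB subunits), some of which cut peptides. The regulatory particle binds ubiquitin, removes it and unfolds the substrate with a ring of ATPases (PSMC subunits) and further subunits (most PSMD genes). PSME genes encode other caps of the barrel, PSMF1 an inhibitor and PSMG genes chaperones that assemble the alpha ring. In human cells the transcription factor NFE2L1 raises most of these genes together when proteasome activity falls.

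Libraries held 1206321 to 1813486 counts, of which the 48 proteasome genes had 1934 to 5119. Values are given as CPM, counts relative to the TMM-scaled library total, in which 3 counts stand for 1.19 to 3.15 CPM. EIF4E, the gene of the transgene, had 9 to 15 counts in vector input and 23 to 39 in eIF4E input, without overlap. Its difference of 0.98 ± 0.36 (SE, log2) did not pass over all genes (edgeR, Benjamini-Hochberg adjusted p = 0.231). Of the mesenchymal markers, VIM lay between 414 and 1489 CPM and COL1A1 between 84.0 and 1067, while COL1A2 had 2 counts in all. KRT8, an epithelial keratin, lay between 1094 and 6033 CPM. Of the blood markers, PTPRC had 2 counts in all libraries, HBB had 0 and CD3E had 8. CD68, also on that list, had 257 counts and lay between 3.56 and 45.2 CPM. Of the neuronal markers, RBFOX3 had 291 counts in all libraries, TUBB3 had 302 and SYP had 62. The summed epithelial list ran from 1106 to 1755 CPM in vector input, 1925 to 3119 in eIF4E input, 2657 to 4082 in vector Cap IP and 4437 to 6052 in eIF4E Cap IP. Nearly all of it is KRT8, while EPCAM had 49 counts in all libraries, CDH1 had 187, and KRT5 lay between 4.53 and 9.70 CPM in vector input, 2.93 and 4.15 in eIF4E input, 7.02 and 12.6 in vector Cap IP and 1.98 and 8.21 in eIF4E Cap IP. The summed mesenchymal list ran from 2021 to 2801 CPM in vector input, 1718 to 2080 in eIF4E input, 1113 to 2494 in vector Cap IP and 1052 to 1278 in eIF4E Cap IP. The part of these lists in the proteasome results was not tested.

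Promoter sequences, which the choice by name did not use, were searched for 3 motifs, with no test of enrichment. RefSeq's promoter table (GRCh38.p14, 250 bases before to 50 after the gene start) held 51 promoters of 42 members. The core of the antioxidant response element, TGACNNNGC on either strand, which NFE2L1 and NFE2L2 bind, was found in 15 of these promoters, or 29.4%, and in 13.3% of all 35116 in the table. The letters CGGAAG, read by ETS factors, were found in 54.9% against 19.5%, and CCAAT, read by NF-Y, in 39.2% against 34.6%. A match describes the letters and is no proof of a site. The 4 stretches printed here show that core in members whose values follow, each from 5′ to 3′ on the gene's strand with up to 30 bases on either side, ahead of the gene's first exon. Capitals mark the match.
PSMB3, chr17:38752607-38752675, plus strand: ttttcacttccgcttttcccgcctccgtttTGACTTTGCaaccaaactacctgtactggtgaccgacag
PSMD3, chr17:39980740-39980806, plus strand: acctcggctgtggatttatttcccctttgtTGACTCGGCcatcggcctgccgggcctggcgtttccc
PSMD12, chr17:67366704-67366772, minus strand: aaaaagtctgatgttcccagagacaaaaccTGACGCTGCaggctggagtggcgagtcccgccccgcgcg
PSME1, chr14:24136078-24136146, plus strand: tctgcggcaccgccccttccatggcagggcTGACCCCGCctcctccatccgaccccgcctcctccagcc

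Most proteasome genes were well detected in input, and their levels spread widely. Per kilobase of exon, which allows levels of different genes to be compared, the alpha subunit PSMA7 was highest at 89.3 ± 23.1 CPM per kb (SD over 6 input libraries). It was followed by the ATPase PSMC3 at 72.8 ± 24.0, the catalytic beta subunit PSMB7 at 68.5 ± 13.7 and the scaffold subunit PSMD2 at 49.1 ± 14.8. The libraries of each of these genes overlap those of its neighbour in that order. The highest of the others was PSME1, a subunit of the activator that interferon raises, at 28.1 ± 9.17 CPM per kb. Of the members with enough counts to be tested, the lowest were PSMA4 at 2.54 ± 0.81 in the core, the ATPase PSMC6 at 1.06 ± 0.39 in the regulatory particle and the chaperone PSMG4 at 0.54 ± 0.21 among the others. Exon lengths are those of all GENCODE isoforms joined, so a gene with many isoforms is placed lower.

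**Figure D1:**
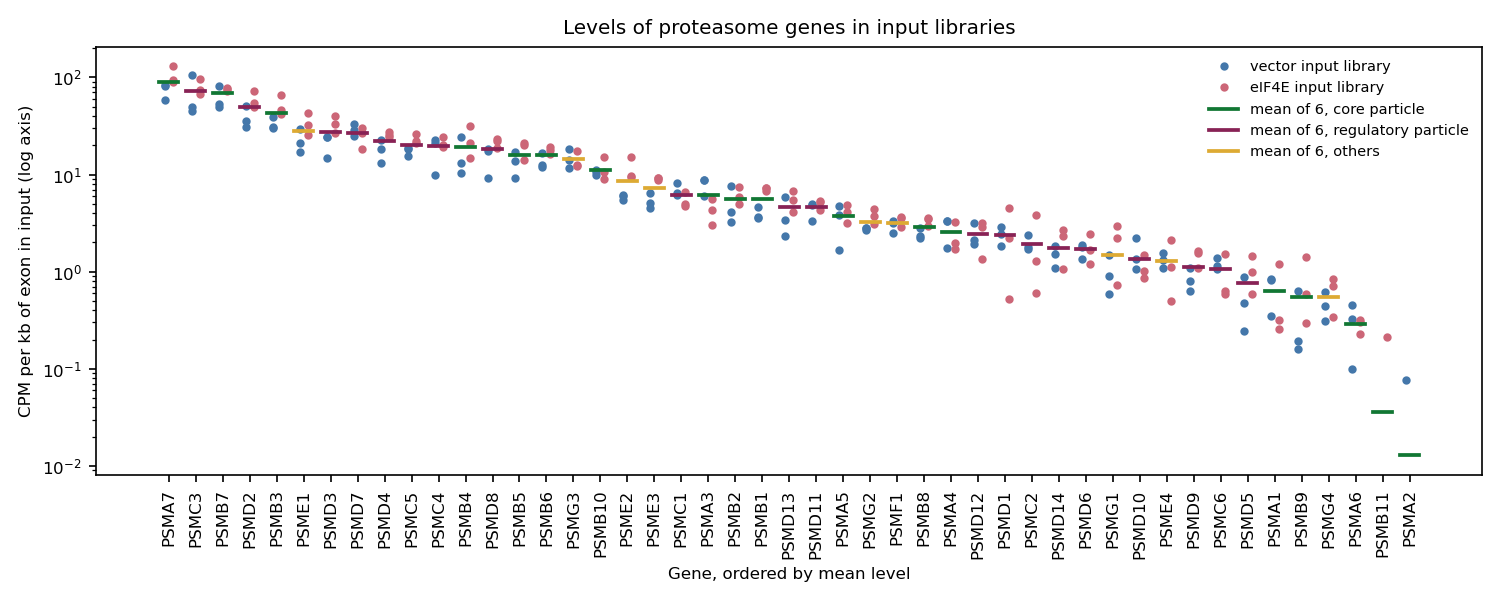
Level of each proteasome gene in the 6 input libraries, in CPM per kb of exon on a log axis; points are libraries, lines are the mean of all 6, coloured by class. PSMA7 at 89.3 leads and PSMG4 at 0.54 is the lowest tested gene; libraries at 0 cannot be drawn, and PSMA8, with no counts, is left out.

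The catalytic subunits had enough counts to be tested. Of the subunits that replace them in immune cells, PSMB10 and PSMB8 did and PSMB9 did not. PSMB7, PSMB5 and PSMB6, which hold the trypsin-like, chymotrypsin-like and caspase-like sites, stood at 68.5, 15.9 and 15.8 CPM per kb in input. Their immunoproteasome counterparts PSMB10, PSMB8 and PSMB9 stood at 11.0, 2.89 and 0.55. PSMB11, the subunit of the thymus, had 1 count in all 12 libraries, and PSMA8, the alpha subunit of the testis, had 0 of 18200146 counts. PSMB8 had 18.3 counts on average, and the antisense gene PSMB8-AS1, over 602 bases of its exons, had 154.5. No source used here says whether strand was used in counting, so whose RNA such counts hold is uncertain.

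Members that were not tested are 9, for lack of counts, and 39 passed the filter. PSMA1, PSMA2 and PSMA6, alpha subunits that every proteasome needs, had 2 to 9, 0 to 1 and 0 to 7 counts per library. PSMB9 had 0 to 9 counts, and PSMD5, PSMD10 and PSMG1, which help to assemble the particles, had 0 to 16, 3 to 10 and 3 to 13. Of these 9 genes, PSMA1, PSMA2, PSMA6 and PSMB9 share exons with a second gene on the same strand in GENCODE release 44, over 814, 1445, 919 and 174 bases. Among the 39 tested members, 5 share such exons, namely PSMC2, PSMD9, PSME2, PSMB10 and PSMF1. No source used here says how reads over shared exons were assigned.

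Between eIF4E and vector input, no proteasome gene passed the test, while most estimates were above 0. Of the 39 tested, 0 were called by edgeR's quasi-likelihood test at a Benjamini-Hochberg adjusted p under 0.05, where 0.53% of all 12460 genes were called. DESeq2 also called 0, and 6 had an unadjusted p under 0.05, where 13.5% of all genes did. The estimate was positive for 31 of 39, with a median of 0.38 on the log2 scale against -0.05 over all genes. The 3 eIF4E libraries lay above all 3 vector libraries for 11 members, where 8.45% of all genes did, and below them for 1, where 10.2% did. In bulk RNA, a change in the make-up of the cells and a change of RNA per cell cannot be told apart.

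The core beta subunits had positive estimates in 9 of 9 genes, with a median of 0.44, and the alpha subunits in 2 of 4. PSMB1, a beta subunit without a catalytic site, had 10.3, 8.02 and 8.01 CPM in vector input and 16.2, 15.2 and 16.1 in eIF4E input. The groups did not overlap, and the difference was 0.85 ± 0.34 (SE, log2; edgeR adjusted p = 0.280). PSMB3, a beta subunit whose promoter is printed above, had 36.2, 46.0 and 34.99 CPM in vector input and 54.6, 48.9 and 77.9 in eIF4E input. All eIF4E libraries were higher, by 0.63 ± 0.27 (edgeR adjusted p = 0.319). The alpha subunit PSMA3 was the one member with all eIF4E libraries lower, at 13.4, 17.6 and 9.35 CPM against 27.2, 18.7 and 27.4, a difference of -0.85 ± 0.38 (edgeR adjusted p = 0.324).

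In the regulatory particle the median was 0.25 over 18 tested genes, with 3 of 6 ATPases and 11 of 12 PSMD genes positive. PSMD3, a subunit of the lid, had 121, 122 and 72.9 CPM in vector input and 131, 166 and 199 in eIF4E input. The groups did not overlap, and the difference was 0.65 ± 0.27 (edgeR adjusted p = 0.290). PSMD1, a scaffold subunit of the base, had 71.2, 35.2 and 8.31 CPM in the 3 eIF4E input libraries and 45.9, 38.5 and 29.1 in vector input, so 1 eIF4E library was far below the other two, for a difference of 0.04 ± 0.54 (edgeR adjusted p = 0.985).

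Among the others the median was 0.43 over 8 genes. PSME2, partner of PSME1 in the activator that interferon raises, had 22.0, 19.8 and 21.5 CPM in vector input and 33.6, 34.2 and 54.5 in eIF4E input. Its difference of 0.95 ± 0.30 had the smallest p of the members and did not pass (edgeR adjusted p = 0.168). PSME3, the activator of the nucleus, had 26.5, 33.7 and 23.2 CPM against 45.1, 47.4 and 47.8, a difference of 0.75 ± 0.28 (edgeR adjusted p = 0.233). Neither pair of groups overlapped. PSMG3, a chaperone of the alpha ring, differed by -0.07 ± 0.31, at 23.3, 35.8 and 27.8 CPM against 24.9, 23.9 and 34.3.

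**Figure D2:**
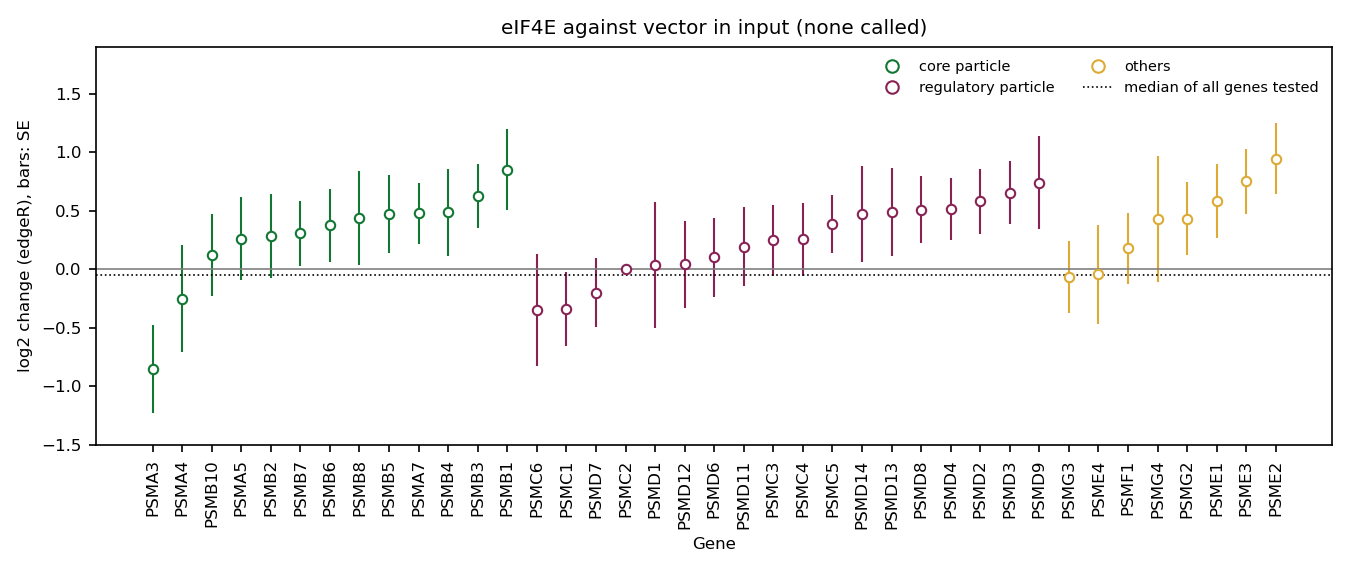
Difference between eIF4E and vector input (log2, edgeR) for the 39 tested proteasome genes, ordered within each class; bars are the SE, left out for PSMC2 whose estimate is 0 to 2 decimals, and the dotted line is the median of all genes at -0.05. Of the 39 points, 31 lie above 0, from PSMA3 at -0.85 to PSME2 at 0.95, and none passed the test.

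Summed over all 48 genes, vector input held 1707, 1944 and 1331 CPM and eIF4E input 2024, 2059 and 2334. All eIF4E libraries lay above all vector libraries, with means of 2139 ± 170 and 1661 ± 309 (SD, n = 3). Replicate 3 of eIF4E input stood apart by gene length. There, the median deviation of the 16 members with 5 kb of exon or more lay 0.78 below that of the 23 shorter ones on the log2 scale, while in the other 5 input libraries it lay between -0.01 and 0.27. Over all genes the same difference in that library was -0.26. The median difference between eIF4E and vector input was 0.47 for the shorter members and 0.14 for the longer ones. The median over all tested members was 0.38, and 0.35 without that library. It was 0.23 without replicate 3 of vector input and 0.53 without replicate 2 of vector input, in each case over 40 members tested and with 0 called.

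Between Cap IP and input of vector cells, 7 of 39 proteasome genes changed, in both directions. The chaperone PSMG2, the alpha subunit PSMA4, the activator subunit PSME1 and the beta subunit PSMB1 rose, while the chaperone PSMG4, the catalytic subunit PSMB7 and the ATPase PSMC1 fell. The share of 17.9% stands against 39.5% of all genes. By direction, the 4 higher stand against 18.5% and the 3 lower against 21%. With the culture (the title stem that an input and a Cap IP library share) as a block, 12 members were called, 8 higher and 4 lower. The added ones were PSMB8, PSMD3, PSMD11, PSMD12 and PSME2. The share of all genes called with that block is not given here, and the 39.5% belongs to the fit without it.

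In eIF4E cells, 6 of 39 changed between Cap IP and input. PSMG2, PSMA4 and the lid subunit PSMD12 rose, and PSMB7, the catalytic subunit PSMB5 and the inhibitor PSMF1 fell. The share of 15.4% stands against 45.1% of all genes, with 21.9% higher and 23.3% lower. Called in both kinds of cell were PSMG2, PSMA4 and PSMB7, and 29 members were called in neither. An estimate within 0.5 of 0 on the log2 scale was found for 61.5% of members in vector cells and in eIF4E cells, against 31.0% and 27.5% of all genes. The median was 0.16 in vector cells (-0.04 over all genes) and -0.25 in eIF4E cells (-0.13 over all genes). The median in vector cells went to 0.06 without replicate 3 of vector input and to 0.35 without replicate 2. With total counts as library sizes, which lowers the median of all genes to -0.76 and -0.97, these medians become -0.56 and -1.10. Of the calls, 1 of 10 in vector cells and 1 of 26 in eIF4E cells is then higher. It is PSMG2 in both, while PSMA4, PSMB1, PSME1 and PSMD12 keep positive estimates and lose their calls. Directions between Cap IP and input are therefore relative to the bulk of genes, and Cap IP counts show shares of the precipitated RNA, not amounts.

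**Figure D3:**
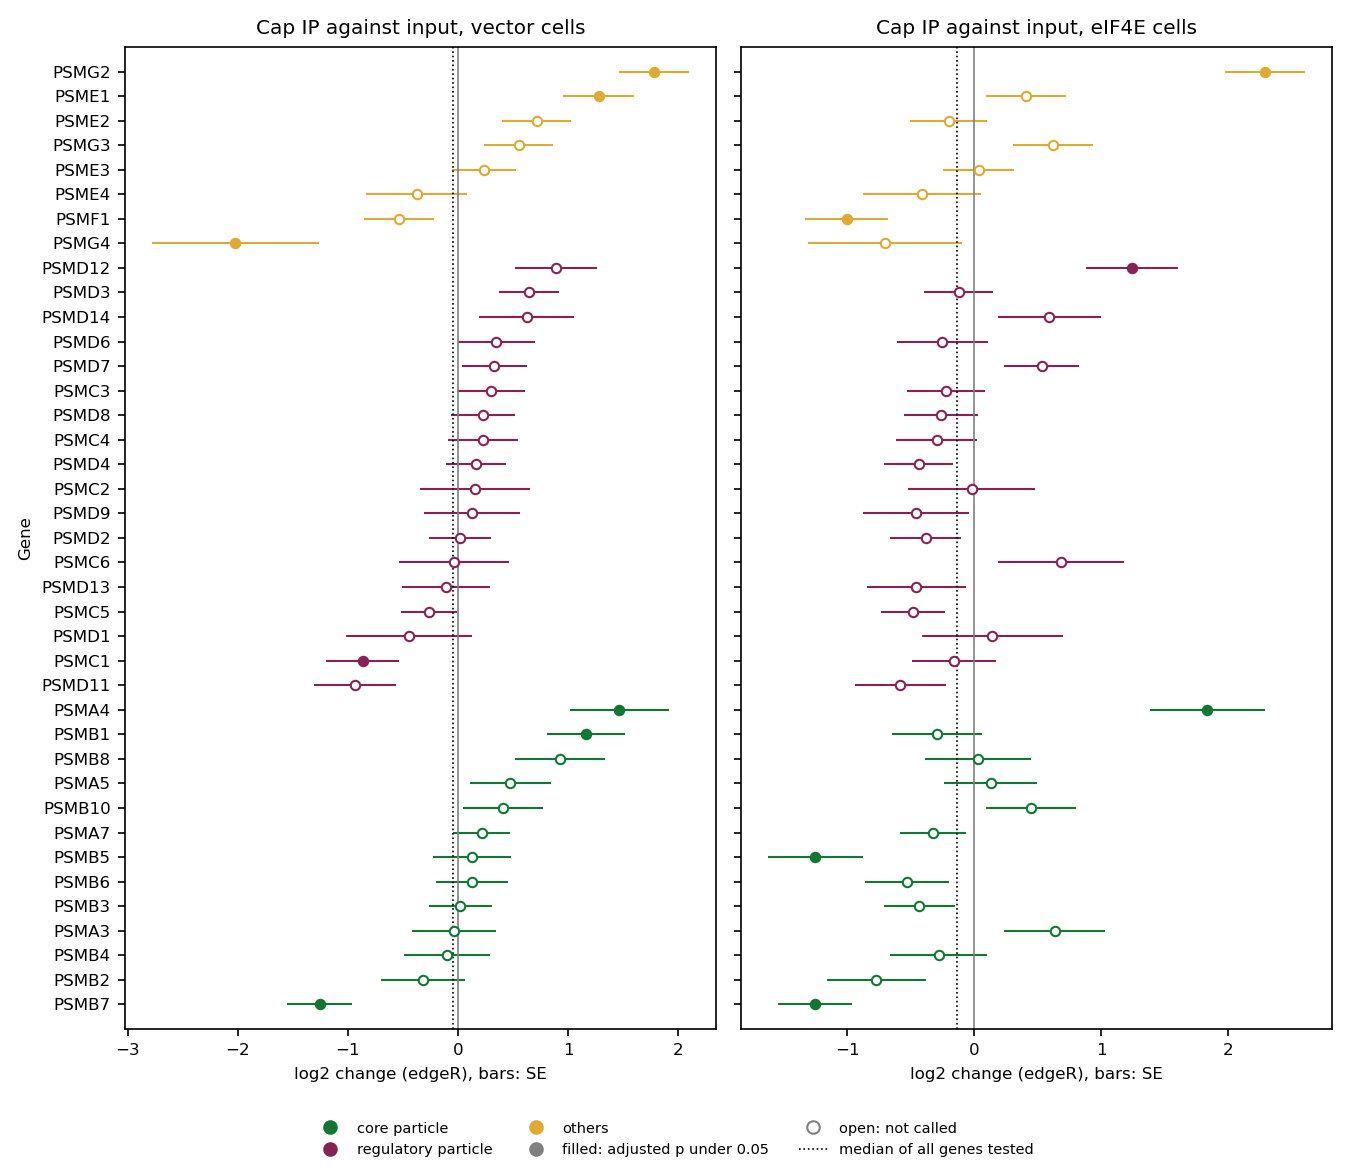
Change between Cap IP and input (log2, edgeR) for the 39 tested proteasome genes in vector cells and in eIF4E cells, grouped by class and ordered by the value in vector cells; bars are the SE, filled points passed at an adjusted p under 0.05 and the dotted line is the median of all genes. PSMG2 leads in both kinds of cell at 1.78 and 2.29, while PSMB7 lies at -1.26 and -1.25.

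By class, 3 of 13 core genes, 1 of 18 genes of the regulatory particle and 3 of 8 others were called in vector cells. In eIF4E cells these were 3 of 13, 1 of 18 and 2 of 8. The shares ran from 5.56% to 37.5% in vector cells and from 5.56% to 25% in eIF4E cells. In each class they lay below the 39.5% (vector) and 45.1% (eIF4E) of all genes. For the others in vector cells, the 37.5% rests on 8 genes and is close to the 39.5%. The medians in vector cells were 0.13, 0.16 and 0.39, and in eIF4E cells -0.29, -0.23 and -0.08. No test between the classes was made. In vector cells, estimates within 0.5 of 0 were found for 9 of 13 core genes, 13 of 18 of the regulatory particle and 2 of 8 others, and in eIF4E cells for 7, 13 and 4. With the culture as a block in vector cells, PSMB8, PSMD3, PSMD11, PSMD12 and PSME2 are added to the calls, which are then 4 of 13, 4 of 18 and 4 of 8. The share of all genes with that block is not given here.

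In the core, PSMA4 had 23.3, 23.0 and 12.2 CPM in vector input and 81.7, 63.1 and 17.9 in vector Cap IP. The third Cap IP library lay within the range of input. The change was 1.46 ± 0.45 (SE, log2; edgeR adjusted p = 0.0141) and is lost without the first or second Cap IP library or the third input library (edgeR adjusted p = 0.105, 0.0528 and 0.0662). In eIF4E cells PSMA4 had 22.5, 13.7 and 11.9 CPM in input and 83.1, 49.3 and 41.6 in Cap IP, without overlap. It rose by 1.83 ± 0.45 (edgeR adjusted p = 0.00280).

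PSMB7 was low in Cap IP of both kinds of cell. It had 145, 88.2 and 94.9 CPM in vector input and 65.1, 36.8 and 35.8 in vector Cap IP, and the log2 change was -1.26 ± 0.29 (edgeR adjusted p = 0.00229). In eIF4E cells it had 130, 136 and 140 CPM in input and 62.6, 53.1 and 54.5 in Cap IP, and it fell by 1.25 ± 0.29 (edgeR adjusted p = 0.00180). The groups did not overlap in either case, and no exon of PSMB7 lies opposite or on top of another gene. The other catalytic subunits were not called in vector cells, where PSMB5 stood at 0.13 ± 0.35 (edgeR adjusted p = 0.803) and PSMB6 at 0.12 ± 0.33 (edgeR adjusted p = 0.793). Whether PSMB7 differs from them was not tested.

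PSMB5, the target of the drug bortezomib, had 21.7, 32.7 and 31.2 CPM in eIF4E input and 10.3, 8.69 and 16.9 in eIF4E Cap IP, without overlap. It fell by 1.25 ± 0.37 (edgeR adjusted p = 0.0102), and this is lost without the second Cap IP library (edgeR adjusted p = 0.0592). PSMB6 in eIF4E cells stood at -0.53 ± 0.33 (edgeR adjusted p = 0.200). PSMB8 and PSMB10, of the immunoproteasome, were not called in either kind of cell by the fit without a block. PSMB8 stood at 0.92 ± 0.41 (vector) and 0.03 ± 0.42 (eIF4E), and PSMB10 at 0.41 ± 0.36 (vector) and 0.45 ± 0.36 (eIF4E). With the culture as a block, PSMB8 passed in vector cells (edgeR adjusted p = 0.0476).

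PSMB1 had 10.3, 8.02 and 8.01 CPM in vector input and 25.3, 21.0 and 13.4 in vector Cap IP, and it rose by 1.16 ± 0.36 (edgeR adjusted p = 0.0137). The call is lost without the first Cap IP library (edgeR adjusted p = 0.0735), or the third input library (edgeR adjusted p = 0.0511), and with no filter on low counts (edgeR adjusted p = 0.0692). In eIF4E cells it had 16.2, 15.2 and 16.1 CPM in input and 13.3, 12.6 and 12.9 in Cap IP. All 3 Cap IP libraries were lower there, and the estimate of -0.29 ± 0.35 did not pass (edgeR adjusted p = 0.524).

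In the regulatory particle, PSMD12 had 15.4, 17.1 and 7.27 CPM in eIF4E input and 23.6, 41.5 and 29.7 in eIF4E Cap IP, without overlap. It rose by 1.24 ± 0.36 (edgeR adjusted p = 0.00924), and this is lost without the second Cap IP library (edgeR adjusted p = 0.0769). In vector cells it had 10.3, 17.1 and 11.4 CPM against 27.2, 24.2 and 21.1, also without overlap, and its 0.89 ± 0.37 missed the threshold (edgeR adjusted p = 0.0638, and 0.0216 with the culture block). PSMC1, an ATPase that helps to open the gate of the core, had 49.8, 37.4 and 39.6 CPM in vector input and 35.003, 14.7 and 19.8 in vector Cap IP. It fell by 0.87 ± 0.33 (edgeR adjusted p = 0.0447) and kept its call only when the first vector Cap IP library was the one left out, with adjusted p from 0.0584 to 0.185 without each of the other 5. NRDE2 lies opposite to 4667 bases of its exons and held 392.5 counts on average against 52.3 for PSMC1. NRDE2 changed by 1.63 in vector cells, the other way.

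The deubiquitinase PSMD14, which cuts ubiquitin from the substrate, was not called, with 0.62 ± 0.43 for vector and 0.59 ± 0.41 for eIF4E. The ubiquitin receptor PSMD4 stood at 0.16 ± 0.27 and -0.44 ± 0.27. The lid subunit PSMD11 just missed in vector cells, at -0.94 ± 0.37 (edgeR adjusted p = 0.0502, DESeq2 adjusted p = 0.0408). With the culture block PSMD11 passed there (edgeR adjusted p = 0.00843). These 3 genes were chosen for their roles or after their values were seen.

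Among the others, PSMG2 had the largest rise of all tested members in both kinds of cell. It had 35.6, 35.3 and 33.7 CPM in vector input and 110, 149 and 102 in vector Cap IP. In eIF4E cells it had 46.3, 55.7 and 38.9 CPM in input and 125, 295 and 271 in Cap IP. Cap IP and input did not overlap in either kind of cell. PSMG2 rose by 1.78 ± 0.32 in vector cells (edgeR adjusted p = 0.000243) and by 2.29 ± 0.31 in eIF4E cells (edgeR adjusted p = 1.54e-05), and each library could be left out without loss of the call. CEP76 and SPIRE1, opposite to 468 and 65 bases of its exons, held 12.8 and 18.9 counts on average against 135 for PSMG2.

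The chaperone PSMG4 went the other way in vector cells, with 3.23, 6.41 and 4.64 CPM in input and 0.97, 1.05 and 1.28 in Cap IP, where it had 1, 1 and 2 counts. The fitted change was -2.02 ± 0.76 (edgeR adjusted p = 0.0390; DESeq2 adjusted p = 0.0589). It is lost when any of the vector libraries other than the first input library is left out (edgeR adjusted p from 0.0722 to 0.119). SLC22A23, opposite to 1388 bases of its exons, held 53.3 counts against 7.08 for PSMG4 and changed by -2.51. PSMG3 was not called, at 0.55 ± 0.31 and 0.62 ± 0.31.

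PSME1 had 52.4, 37.4 and 30.4 CPM in vector input and 98.2, 69.4 and 121 in vector Cap IP, without overlap. It rose by 1.28 ± 0.32 (edgeR adjusted p = 0.00385). In eIF4E cells its 45.1, 57.7 and 76.3 CPM in input overlapped the 53.4, 98.5 and 85.3 in Cap IP (0.41 ± 0.32, edgeR adjusted p = 0.302). PSMF1, which binds the core and inhibits it in the test tube, had 30.04, 38.1 and 37.4 CPM in eIF4E input and 13.3, 25.1 and 13.9 in eIF4E Cap IP. It fell by 1.00 ± 0.33 (edgeR adjusted p = 0.0172), and the call is lost without replicate 1 or 3 of Cap IP or replicate 2 of input (edgeR adjusted p = 0.0786, 0.0720 and 0.0555). In vector cells PSMF1 had 33.0, 34.7 and 25.7 CPM against 17.5, 24.2 and 22.3, without overlap, at -0.54 ± 0.32 (edgeR adjusted p = 0.189).

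**Figure D4:**
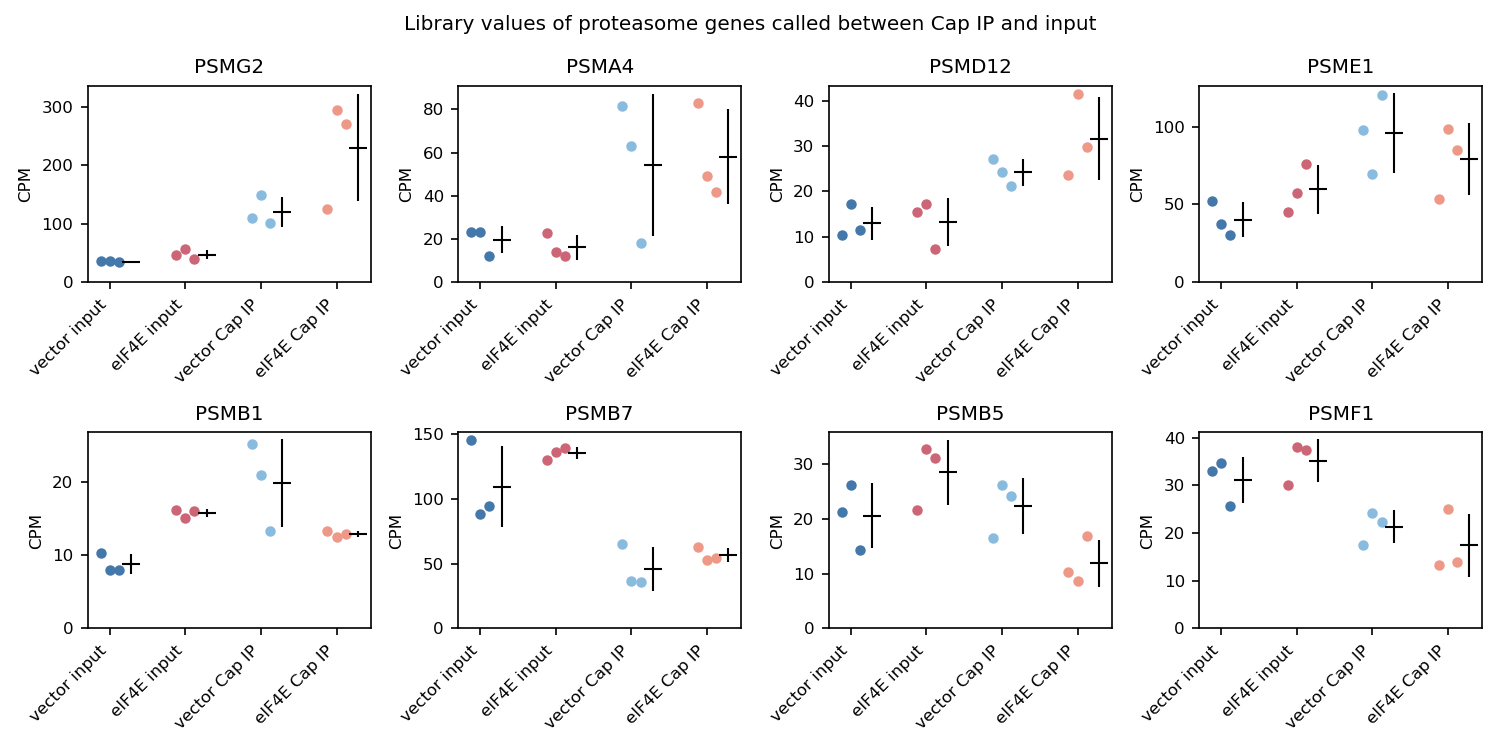
CPM in each of the 12 libraries for 8 proteasome genes called between Cap IP and input in at least 1 kind of cell; coloured points are libraries, black marks the mean and SD of 3. PSMG2 reaches 295 CPM in eIF4E Cap IP against at most 55.7 in input, and PSMB7 reaches at most 65.1 CPM in Cap IP against at least 88.2 in input.

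The difference of these changes between eIF4E and vector cells was tested in 1 model, and 0 of 39 members passed in edgeR's quasi-likelihood test, as in 0% of all genes. DESeq2 also called 0. An unadjusted p under 0.05 was found for 3 members, where 5.84% of all genes had one. They were PSMB1 at -1.45 ± 0.50, PSMB5 at -1.38 ± 0.51 and PSME2 at -0.91 ± 0.44, all with an edgeR adjusted p of 0.833. PSME2 stood at 0.71 ± 0.31 for vector and -0.20 ± 0.30 for eIF4E cells, neither called without a block. With the culture as a block, PSME2 passed in vector cells (edgeR adjusted p = 0.0389). The estimate was negative for 26 of 39, with a median of -0.34 against 0.02 over all genes, and of -0.49 for the shorter members and 0.16 for the longer ones. The median moved to -0.61 without replicate 2 of vector input and to -0.11 without replicate 3. Both comparisons of eIF4E with vector and both of Cap IP with input share these libraries, so their values are not independent.

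Between eIF4E and vector Cap IP, 0 of 39 members were called by edgeR, where 0.225% of all genes were, and DESeq2 called 0. With the tag of the titles as a block the number was also 0. An unadjusted p under 0.05 was found for 3, where 9.2% of all genes had one. The median was 0.02 against -0.01 over all genes. All eIF4E libraries were above all vector libraries for 2 members, PSMG4 and PSME3 (6.16% of all genes), and below them for 2, PSMB1 and PSMD6 (7.39%).

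PSMG2 had the smallest p there, with 125, 295 and 271 CPM in eIF4E Cap IP and 110, 149 and 102 in vector Cap IP. The lowest eIF4E library lay within the vector range, and the difference was 0.94 ± 0.30 (edgeR adjusted p = 0.313). PSMB5 had 10.3, 8.69 and 16.9 CPM against 16.5, 26.3 and 24.3, a difference of -0.90 ± 0.39 (edgeR adjusted p = 0.480). PSMG4 had 3, 7 and 2 counts against 1, 1 and 2, at 1.75 ± 0.83 (edgeR adjusted p = 0.533), close to the floor of 3 counts. Summed over all members, Cap IP held 1955 ± 154 CPM in vector and 2066 ± 126 in eIF4E cells (SD, n = 3), with overlap.

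Genes around the proteasome, from a list outside the naming rule, were called between Cap IP and input about as often as all genes when both directions are counted. In eIF4E cells most of their calls were lower in Cap IP. Of 32 such genes 29 were tested, and PAAF1, UCHL5 and NGLY1 had too few counts. In vector cells 4 rose and 6 fell (34.5%), and in eIF4E cells 3 rose and 11 fell (48.3%), against the 39.5% and 45.1% of all genes. By direction, all genes had 18.5% higher and 21% lower in vector cells, and 21.9% higher and 23.3% lower in eIF4E cells. NFE2L1, the factor that drives proteasome genes, was lower in Cap IP in both, at -1.31 ± 0.29 for vector cells (edgeR adjusted p = 0.00131) and -1.70 ± 0.28 for eIF4E cells (edgeR adjusted p = 8.94e-05). NFE2L2, its relative in the oxidative stress response, rose by 1.03 ± 0.35 and 1.14 ± 0.35 (edgeR adjusted p = 0.0256 and 0.0128). Another gene lies opposite to 3509 bases of the exons of NFE2L2 and to 192 of those of NFE2L1. Whose RNA the counts of NFE2L2 hold is therefore uncertain. VCP, the ATPase that hands ubiquitinated proteins to the proteasome, was called lower in both, at -0.85 ± 0.28 and -1.38 ± 0.28. So was its cofactor NPLOC4, at -1.09 ± 0.28 and -1.66 ± 0.29, and the ubiquitin-activating enzyme UBA1, at -1.03 ± 0.26 and -1.67 ± 0.27. POMP, which matures the core particle, rose by 1.83 ± 0.48 in vector cells (edgeR adjusted p = 0.00523). Its 0.20 ± 0.45 in eIF4E cells was not called (edgeR adjusted p = 0.748), and the difference between the cells did not pass (edgeR adjusted p = 0.833). USP14, the deubiquitinase that docks on the regulatory particle, rose by 2.14 ± 0.41 in eIF4E cells and stood at 0.86 ± 0.42, not called, in vector cells. Between eIF4E and vector, 0 of the 29 were called by edgeR or DESeq2 in input, in Cap IP or in the difference, with 4 at an unadjusted p under 0.05 in each. In input, 23 of the 29 estimates were positive and 6 negative. NFE2L1 had the smallest p of the list there, at 0.82 ± 0.27, and did not pass (edgeR adjusted p = 0.172).

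The members with the antioxidant core in the promoter had a median difference in input that was close to the rest. It was 0.41 over 12 tested genes, against 0.26 over the 21 tested genes with a promoter that lacks it. Between Cap IP and input, 3 of the 12 were called higher and 0 lower in both kinds of cell, PSMG2 and PSMA4 in both, PSME1 in vector cells and PSMD12 in eIF4E cells. Of the 21, 0 were called higher and 2 lower in each kind of cell. PSMA7, PSMB1, PSMB6, PSMB7, PSMD4 and PSMG3 had no RefSeq promoter to search and are in neither group. Of these, PSMB1 was called higher in vector cells and PSMB7 lower in both kinds of cell. The stretches around the match in PSMG2 and PSMA4 overlap an exon of the same gene, while those in PSME1 and PSMD12 do not. Over all genes, the shares called higher and lower were 18.5% and 21% (vector) and 21.9% and 23.3% (eIF4E). These counts describe the members, and no test of the groups was made. The log10 of exon length had a Pearson correlation across the 39 members of -0.15 with the change in vector cells and of 0.24 in eIF4E cells. This is a description of genes measured in the same libraries. Over the 10157 tested genes with a gene model these were -0.15 and -0.15. Spearman correlations were -0.17 (vector) and 0.16 (eIF4E) for the members, and -0.28 and -0.21 over the 10157 genes. Of the 17 tested members with exons opposite to another gene, 4 were called in vector cells and 2 in eIF4E cells (23.5% and 11.8%). Of the 22 without, these were 3 and 4 (13.6% and 18.2%). Both sets lay below the 39.5% (vector) and 45.1% (eIF4E) of all genes.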

How the data were processed

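The submitters' processing notes name STAR 2.5.1b, featureCounts 1.4.5-p1, DESeq2 and the build GRCh38.p5. The values the authors deposited are raw counts per gene name, and they were used as deposited. Per the labels' protocols, libraries were made with a ribosomal RNA depletion kit and read as single ends of 75 cycles. The strand setting of featureCounts and its annotation: not given in the sources used here. All 12 columns were mapped to samples by title, and 0 were left unused. Members and lists were chosen with earlier results of these data known.

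The tests ran in edgeR 4.0.16 (with limma 3.58.1, under R 4.3.3). The 12460 genes that filterByExpr left were scaled with TMM and fitted with 4 group means over 12 libraries by the quasi-likelihood method. Calls used a Benjamini-Hochberg adjusted p, taken over all genes, under 0.05 in each of 5 comparisons. The SE is the log2 change divided by the root of the F statistic. The procedure was run on simulated counts drawn independently for each library, so pairing by title stem was not part of that run. Its outcome is not given here. A floor of 3 counts covers counting error only.

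Named members were those called between eIF4E and vector, or else the 3 with the smallest p, the 3 largest called changes per class and direction between Cap IP and input, the highest and lowest per class in input, the catalytic and tissue-specific subunits and the untested ones. Others named, such as PSMB3, PSMD1, PSMD3, PSMD4, PSMD11, PSMD14 and PSMG3, were chosen for their role or after their values were seen. Exons come from GENCODE release 44 (33749 gene names matched, 1617 more by an older symbol).

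Titles share a stem between input and Cap IP (called the culture here) and a tag between vector and eIF4E. The labels do not say what the stem or the tag marks. Residuals from the group means had correlations for the culture of 0.43, 0.27 and 0.44 (vector) and 0.35, 0.08 and 0.11 (eIF4E). For the tag they were 0.18, 0.01 and -0.04 (input) and 0.20, 0.16 and 0.30 (Cap IP). By a limit of 0.1 for each pair, the culture pairs libraries in vector cells and the tag in Cap IP. The main fit used neither block, so its 7 calls between Cap IP and input in vector cells leave this pairing out. With the culture as a block, 12 were called there. No 2 replicates were copies of one library (chi-square over its degrees of freedom from 5.10 to 18.0). Alternatives were DESeq2 1.42.0, its size factors, total counts, other filters, only the groups compared, both blocks and each library left out. Tables and figures were made in Python 3.11.15 with matplotlib 3.10.9, pandas 2.3.3, SciPy 1.17.1 and NumPy 2.4.6.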

Additional observations from a re-analysis of the deposited data

Results flagged for a closer look

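The values of PSMB1 per title stem (called the culture above) had opposite signs between Cap IP and input in the 2 kinds of cell. The estimate of -0.29 ± 0.35 (SE, log2) in eIF4E cells was not called (edgeR adjusted p = 0.524). The log2 change per stem lay between 0.66 and 1.26 in vector cells and between -0.29 and -0.25 in eIF4E cells. All 3 stems of one kind were thus above 0 and all 3 of the other below. The labels do not say whether the stems mark separate cultures. The difference of -1.45 was tested in the model over all libraries and did not pass (edgeR adjusted p = 0.833). This pattern was found for 1 of 39 tested members (2.56%) and for 200 of all 12460 genes (1.61%).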

How the results depend on the processing

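In input, in Cap IP and for the difference, 0 members were called under each alternative run; restricting the fit to the groups compared was not run for the difference, which uses all 4. For Cap IP against input in vector cells, 7 members were called, against 4 with no filter on low counts, 12 with the culture as a replicate block and between 4 and 6 with 1 library left out (4 without the second Cap IP or the third input library). In eIF4E cells the blocks gave 7 (culture) and 6 (tag), and total counts as library sizes 26 in place of 6. Total counts also moved the medians to -0.56 in vector cells, which reverses the sign, and to -1.10 in eIF4E cells. The median of the difference ran from -0.61 to -0.11 with 1 library left out. Of the values of single named members under alternatives, 278 kept their side of the threshold and 30 lost it. All 30 losses were among the calls between Cap IP and input. Members named between eIF4E and vector had no call to lose, and their values are part of the 278. PSMB7 and PSMG2 kept their calls in both kinds of cell with each library left out, as did PSME1 in vector cells and PSMA4 in eIF4E cells. The blocks changed no other call between eIF4E and vector. Causes of these shifts were not tested, and the shares of all genes called under each alternative are not given here. With 1206321 to 1813486 counts per library, 9 of 48 members could not be tested, and low genes such as PSMG4 rest on a few counts.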

Other observations

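Of 37 further gene names that begin with PSM and fall outside the rule, 6 were tested, and all values here were chosen after they were seen. PSMA2P3, a pseudogene of PSMA2, had 6, 5 and 4 counts in vector input and 22, 23 and 9 in vector Cap IP, while PSMA2 itself had 1 count in all libraries. It rose by 2.61 ± 0.56 in vector cells (edgeR adjusted p = 0.00108) and by 2.10 ± 0.54 in eIF4E cells (edgeR adjusted p = 0.00381). PSMD10P1, a pseudogene of PSMD10, had 46, 54 and 87 counts in vector input and 32, 37 and 10 in eIF4E input, and 2, 0, 1, 0, 0 and 0 in the Cap IP libraries. It passed in both kinds of cell (edgeR adjusted p = 2.12e-05 and 9.61e-05), while PSMD10 had 3 to 10 counts in each library. Reads of a gene and of its pseudogene copies cannot be told apart with certainty in such counts.

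The antisense genes PSMB8-AS1 and PSMD5-AS1 went opposite ways between Cap IP and input. PSMB8-AS1 rose by 0.96 ± 0.30 in vector cells (edgeR adjusted p = 0.0140) and by 1.18 ± 0.29 in eIF4E cells (edgeR adjusted p = 0.00280). PSMD5-AS1 fell by 1.27 ± 0.38 (edgeR adjusted p = 0.0124) and by 1.08 ± 0.38 (edgeR adjusted p = 0.0257). PSMB8 was called only in vector cells with the culture as a block, and PSMD5 could not be tested.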
